A study of Sus scrofa with 6 samples.

Results

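Muscle spends ATP in bursts, and a small set of enzymes keeps the ratio of ATP to ADP and AMP high while it does so. Creatine kinases pass phosphate between creatine and ADP, adenylate kinase turns ADP into ATP and AMP, and AMP is then removed either by deamination to IMP or by dephosphorylation to adenosine. The IMP can be rebuilt into AMP by adenylosuccinate synthetase and adenylosuccinate lyase, a loop known as the purine nucleotide cycle, and adenosine can be rebuilt into AMP by adenosine kinase. This account covers 9 genes of that system of the 25878 genes listed: NT5C1A, the cytosolic 5'-nucleotidase that dephosphorylates AMP, the AMP deaminases AMPD1 and AMPD3, ADSL (adenylosuccinate lyase), ADK (adenosine kinase), AK1 (cytosolic adenylate kinase), and the creatine kinases CKM, CKMT2 and CKB. They were taken by gene symbol, and each symbol matched 1 row. NT5C1A was included because of its HF against LF pattern in these same pigs, so its values are given as a description with no test, while the others belong to the system by function.

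RNA of the longissimus dorsi, the long muscle of the back, was sequenced from 3 pigs of the high-fat deposition group (HF) and 3 of the low-fat deposition group (LF), with 1 library per pig. All were Nanyang Black pigs of 180 days by the labels, a Chinese indigenous breed, and the study's text gives a somewhat later age. By the study's methods they were sibling females of 1 pen with no treatment described, and the groups were formed from backfat thickness and fat measured in the muscle. The groups therefore differ in a trait and not in an applied factor, and anything else that differed between these 6 animals goes with them.

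Levels are in FPKM, counts of fragments divided by transcript length and by the size of the library, which can be compared between genes because they are per length. The FPKM values summed to 734973 to 961903 in 5 libraries and to 598096 in LF02, where COX1, ATP8, ATP6 and COX3 of the mitochondrial genome are listed at 0. ACTA1, the skeletal muscle actin, is listed at 0 in HF01 and HF03. None of the 9 genes is listed at 0 in any pig. The label of the tissue held: the summed FPKM of 10 fast fibre markers was 29798 to 48805 in the HF pigs and 37484 to 68688 in the LF pigs, and that of 8 slow fibre markers was 1439 to 12145 in HF and 2080 to 8518 in LF. MYH1, a fast fibre myosin on that list, was not analysed here.

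The groups were compared with limma on log2(FPKM + 0.1) for 11136 genes, those whose mean reached 0.5 FPKM, which kept all 9. Calls were made where p, adjusted by Benjamini-Hochberg over all genes tested, was under 0.05. On that rule 8 genes of all (0.0718%) were called, 4 higher (0.0359%) and 4 lower (0.0359%) in HF, and 72 higher and 10 lower after upper quartile scaling. Of the 8 genes other than NT5C1A, 0 were called by limma. At an unadjusted p under 0.05, 1 of the 8 was higher in HF (CKB), where 11% of all genes were, and 3 were lower (AMPD1, ADSL and ADK), where 13.8% of all genes were, or 24.8% in either direction. No overlap between the groups was seen in 3 of the 8, each lower in HF, against 29.9% of all genes in either direction and 17.1% lower in HF. The median log2 fold change of the 8 was -0.13, with 4 positive and 4 negative, and that of all genes tested was -0.026. Log2 fold changes are HF over LF throughout and understate the change of genes with low FPKM. In whole muscle, fewer cells of a type and less RNA per cell cannot be told apart.

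**Figure D1:**
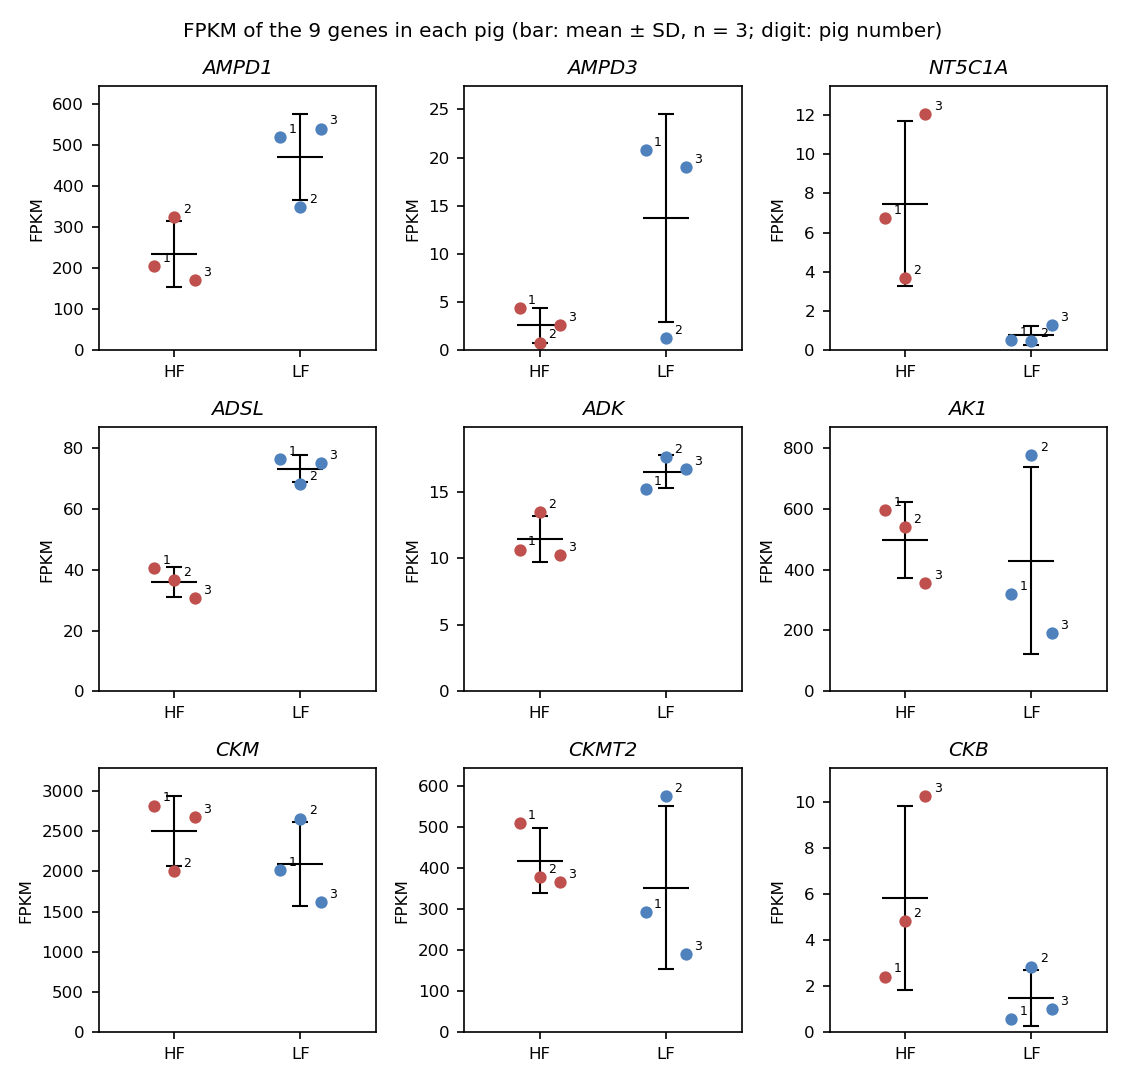
FPKM (vertical axis, from 0) of each of the 9 genes in the 3 HF pigs (red, left) and the 3 LF pigs (blue, right), with the group mean ± SD and the pig number beside each point. AMPD1, ADSL and ADK were lower in every HF pig than in any LF pig, NT5C1A was higher in every HF pig, and AMPD3, AK1 and CKMT2 show LF02 far from LF01 and LF03.

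The 9 levels spanned a wide range. CKM, the creatine kinase of the contractile apparatus, had the highest mean over the 6 pigs at 2295 FPKM, with a range (1622 to 2815 FPKM) that did not meet that of any other member. AK1 followed at a mean of 463 FPKM, CKMT2, the mitochondrial creatine kinase of muscle and heart, at 384 FPKM, and AMPD1, the deaminase form of skeletal muscle, at 352 FPKM. The ranges of these 3 genes overlapped, so their order is not set by these pigs. ADSL at a mean of 54.6 FPKM and ADK at 14.0 FPKM stood apart from the genes above them and from each other, since the lowest ADSL value (30.7 FPKM) was above the highest ADK value (17.6 FPKM). AMPD3, the AMP deaminase form of red blood cells, had a mean of 8.15 FPKM, NT5C1A of 4.13 FPKM, and CKB, the creatine kinase form of brain and smooth muscle, of 3.65 FPKM. The ranges of these last genes overlapped each other, and that of AMPD3 (0.810 to 20.8 FPKM) also took in the whole range of ADK.

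The spread between pigs of 1 group also differed among the members. The residual SD on the log2 scale was 0.16 for ADSL and 0.17 for ADK, below the median of 0.31 over all genes tested. It was 0.31 for CKM, 0.42 for AMPD1, 0.60 for CKMT2, 0.77 for AK1 and 0.78 for NT5C1A. CKB at 1.06 and AMPD3 at 1.77 varied most, and for these a difference between groups of 3 is known only loosely.

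AMPD1 opens the purine nucleotide cycle by turning AMP into IMP and ammonia. In the Sscrofa11.1 assembly the gene spans 105868893 to 105893219 of chromosome 4. The HF pigs had 206, 325 and 171 FPKM (HF01 to HF03), and the LF pigs 519, 349 and 539 FPKM (LF01 to LF03). Every HF pig was below every LF pig, but HF02 and LF02 came close to each other. The mean was 234 ± 80.6 FPKM in HF and 469 ± 105 FPKM in LF (SD, n = 3 each), or -1.03 as a log2 fold change (standard error 0.30, 95% interval -1.71 to -0.35). It did not pass (limma, adjusted p = 0.104, 0.0661 to 0.283 over the alternatives).

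AMPD3 carries out the same reaction. On chromosome 2 it spans 49028923 to 49083644 and shares 13206 bases with an unnamed gene (ENSSSCG00000040978) that is listed at 0 in every pig. AMPD3 was at 4.35, 0.810 and 2.60 FPKM across HF01 to HF03, and at 20.8, 1.30 and 19.0 FPKM across LF01 to LF03. LF01 and LF03 were thus far above the other 4 pigs, and LF02 was below HF01 and HF03. The log2 fold change was -1.89 (standard error 1.02, 95% interval -4.22 to 0.44), which did not pass (limma, adjusted p = 0.283, 0.0493 to 0.587 over the alternatives). Without LF02 it was -3.17 with an adjusted p of 0.0493 from limma, and 2.03% of all genes were then called in either direction and 1.11% as lower in HF. LF02 is singled out here after its AMPD3 level was seen, so that call is a description.

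As a share of AMPD1, AMPD3 was 2.11%, 0.249% and 1.52% in HF01 to HF03, and 4.0%, 0.371% and 3.53% in LF01 to LF03. The pigs with number 2 were the lowest of their group, and LF02 lay below HF01 and HF03. The mean log2 ratio differed by -0.90 (HF minus LF, exact permutation test, two-sided p = 0.5, adjusted over 3 ratios 0.75), and 3 pigs against 3 cannot give a p below 0.1. AMPD2, the third deaminase form, was at 1.52 ± 0.226 FPKM in HF and 1.17 ± 0.156 FPKM in LF (limma, adjusted p = 0.388). Of the summed FPKM of the deaminases, AMPD1 made up 97.3%, 99.3% and 97.5% in the HF pigs and 95.9%, 99.4% and 96.4% in the LF pigs.

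NT5C1A removes AMP by the other route, as adenosine. The gene spans 95480716 to 95496905 of chromosome 6, and no other listed gene overlaps it. Its level was 6.75, 3.68 and 12.0 FPKM across HF01 to HF03, and 0.521, 0.465 and 1.30 FPKM across LF01 to LF03. The lowest HF pig was above the highest LF pig, and within each group the pig with number 3 was highest. The mean was 7.49 ± 4.23 FPKM in HF and 0.763 ± 0.468 FPKM in LF (SD, n = 3 each), a ratio of 9.81 between the means, and the log2 fold change was 3.11. With a pseudocount of 1 FPKM in place of 0.1 the log2 fold change was 2.18, since the LF levels lie below that pseudocount or near it.

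The messages for the competing routes of AMP removal can be set side by side within each pig. AMPD1 had 30.5, 88.3 and 14.2 times the FPKM of NT5C1A in HF01 to HF03, and 996, 750 and 414 times in LF01 to LF03. AMPD1 was the more abundant in all 6 pigs. The gap between the groups in this ratio contains the pattern for which NT5C1A was picked and is a description.

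**Figure D2:**
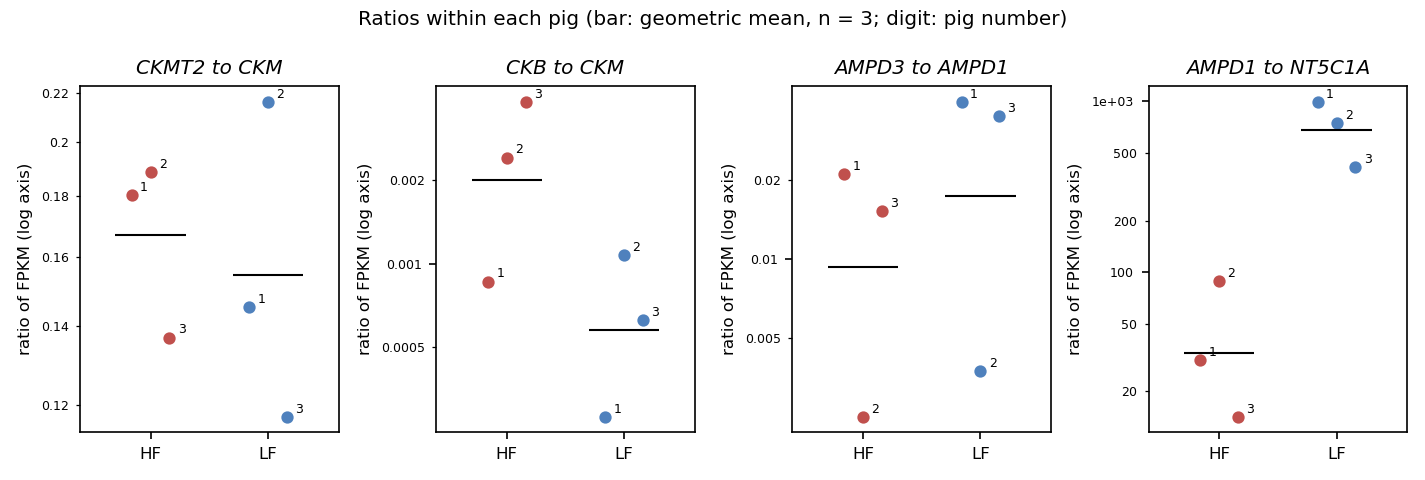
Ratios of FPKM between 2 genes of the same pig on log axes, for CKMT2 to CKM, CKB to CKM, AMPD3 to AMPD1 and AMPD1 to NT5C1A, with HF (red) left of LF (blue), the geometric mean of each group as a bar and the pig number beside each point. The first 3 ratios overlap between the groups, and AMPD1 to NT5C1A ran from 14.2 to 88.3 in HF and from 414 to 996 in LF.

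ADSL cleaves adenylosuccinate to AMP in the purine nucleotide cycle and also serves a step of purine synthesis. It is found on chromosome 5 from 8027588 to 8045528. Its level was 40.6, 36.5 and 30.7 FPKM across HF01 to HF03, and 76.5, 68.3 and 75.1 FPKM across LF01 to LF03. The groups lay far apart relative to the spread within them, with means of 36.0 ± 5.0 FPKM in HF and 73.3 ± 4.4 FPKM in LF (SD, n = 3 each). The log2 fold change was -1.03 (standard error 0.19, 95% interval -1.48 to -0.59) and did not pass (limma, adjusted p = 0.0778, 0.0524 to 0.256 over the alternatives). At an adjusted p under 0.10, where 6.32% of all genes were called (2.83% higher and 3.49% lower), ADSL was the only one of the 8 genes called.

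ADK returns adenosine to AMP. Its span runs from 76836055 to 77318248 of chromosome 14, and ADK was at 10.7, 13.5 and 10.2 FPKM across HF01 to HF03 against 15.2, 17.6 and 16.7 FPKM across LF01 to LF03. Every HF pig was below every LF pig, by a smaller margin than for ADSL. The log2 fold change was -0.53 (standard error 0.19, 95% interval -0.97 to -0.093; limma, adjusted p = 0.143, 0.114 to 0.352 over the alternatives).

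AK1 balances ADP with ATP and AMP, and so supplies the AMP that the deaminases and nucleotidases remove. On chromosome 1 it spans 268355035 to 268365598. Its level was 594, 538 and 356 FPKM across HF01 to HF03, and 321, 775 and 193 FPKM across LF01 to LF03. The highest and the lowest values were both in the LF group. The means were 496 ± 124 FPKM in HF and 429 ± 306 FPKM in LF (SD, n = 3 each), with a log2 fold change of 0.42 (95% interval -0.66 to 1.5; limma, adjusted p = 0.617, 0.108 to 0.970 over the alternatives). The sign depended on single pigs: the log2 fold change was 0.96 without LF02 (limma, adjusted p = 0.108) and -0.040 without LF03 (limma, adjusted p = 0.970).

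CKM spans 51699165 to 51715091 of chromosome 6. It was at 2815, 2002 and 2669 FPKM across HF01 to HF03, and at 2009, 2654 and 1622 FPKM across LF01 to LF03. The groups overlapped. The log2 fold change was 0.27 (standard error 0.26, 95% interval -0.33 to 0.86; limma, adjusted p = 0.557, 0.251 to 0.874 over the alternatives). An unnamed gene of 792 bases (ENSSSCG00000036235, from 51704370 to 51705161) lies wholly inside the CKM span. It was named after its values were seen, and was itself at 1290, 815 and 1044 FPKM among the HF pigs and 1454, 1378 and 843 FPKM among the LF pigs. How fragments were divided between these models is not given in the sources used here, and the level of CKM is uncertain to that extent. With its FPKM added to CKM, the log2 fold change was 0.11 (limma, adjusted p = 0.837). MARK4 shares 1388 bases with 1 end of the CKM span, at 1.28 to 3.26 FPKM.

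CKMT2 sits in the space between the mitochondrial membranes and charges creatine with phosphate from newly made ATP. The gene spans 89796474 to 89832990 of chromosome 2. Its level was 508, 378 and 365 FPKM across HF01 to HF03, and 292, 574 and 190.3 FPKM across LF01 to LF03. LF02 was above all HF pigs, and LF01 and LF03 were below them. The log2 fold change was 0.38 (95% interval -0.50 to 1.26; limma, adjusted p = 0.572, 0.111 to 0.989 over the alternatives), and it was 0.81 without LF02 (limma, adjusted p = 0.111) and 0.011 without LF03 (limma, adjusted p = 0.989). The ratio of CKMT2 to CKM was 18.0%, 18.9% and 13.7% in the HF pigs, and 14.5%, 21.6% and 11.7% in the LF pigs. The mean log2 ratio differed by 0.11 (HF minus LF, exact permutation test, two-sided p = 0.8, adjusted over 3 ratios 0.8), and by -0.085 without LF03.

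CKB was much rarer in this muscle. Its model covers 2070838 to 2074138 of the scaffold AEMK02000452.1. CKB was at 2.42, 4.83 and 10.2 FPKM across HF01 to HF03 against 0.563, 2.85 and 1.02 FPKM across LF01 to LF03. LF02 exceeded HF01, and the other LF pigs were below every HF pig. The log2 fold change was 1.96 (standard error 0.62, 95% interval 0.53 to 3.39; limma, adjusted p = 0.119, 0.0576 to 0.298 over the alternatives). An unnamed gene (ENSSSCG00000031003) covers 3156 bases of the same stretch and is listed at 2.28 FPKM in HF03 and at 0 in the other pigs. Relative to CKM, CKB was 0.0861%, 0.241% and 0.384% in the HF pigs and 0.0280%, 0.108% and 0.0626% in the LF pigs. The mean log2 ratio differed by 1.80 (HF minus LF, exact permutation test, two-sided p = 0.2, adjusted over 3 ratios 0.6).

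The creatine kinases together held 3325, 2385 and 3045 FPKM across HF01 to HF03 and 2301, 3230 and 1813 FPKM across LF01 to LF03. CKM made up 84.0% to 87.7% of that sum in the HF pigs and 82.2% to 89.4% in the LF pigs. CKMT2 held nearly all of the rest, since CKB was at most 0.336% of the sum.

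Across the 6 pigs the members fell into several patterns. Likeness was measured as the root mean square difference between log2(FPKM + 0.1) values, each gene centred on its own mean over the 6 pigs, so that smaller means more alike. Of the 36 pairs of members the most alike were AK1 and CKMT2, at 0.20 log2 units, followed by AMPD1 and ADSL at 0.29, CKM and CKMT2 at 0.30, and ADSL and ADK at 0.31. AK1, CKMT2 and CKM had in common that LF02 was the highest and LF03 the lowest of the LF pigs. The summed fast fibre markers had the same order in LF, at 43814, 68688 and 37484 FPKM across LF01 to LF03. In HF that sum was lowest in HF03, as AK1 and CKMT2 were, while CKM was lowest in HF02. The part of fibre type in these levels was not tested. AMPD1, ADSL and ADK had in common that every HF pig was below every LF pig. NT5C1A was closest to CKB among the members, at 1.15, and AMPD3 was far from all, at 1.46 from ADSL and 2.88 from CKB. These distances include the difference between the groups and were not tested.

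**Figure D3:**
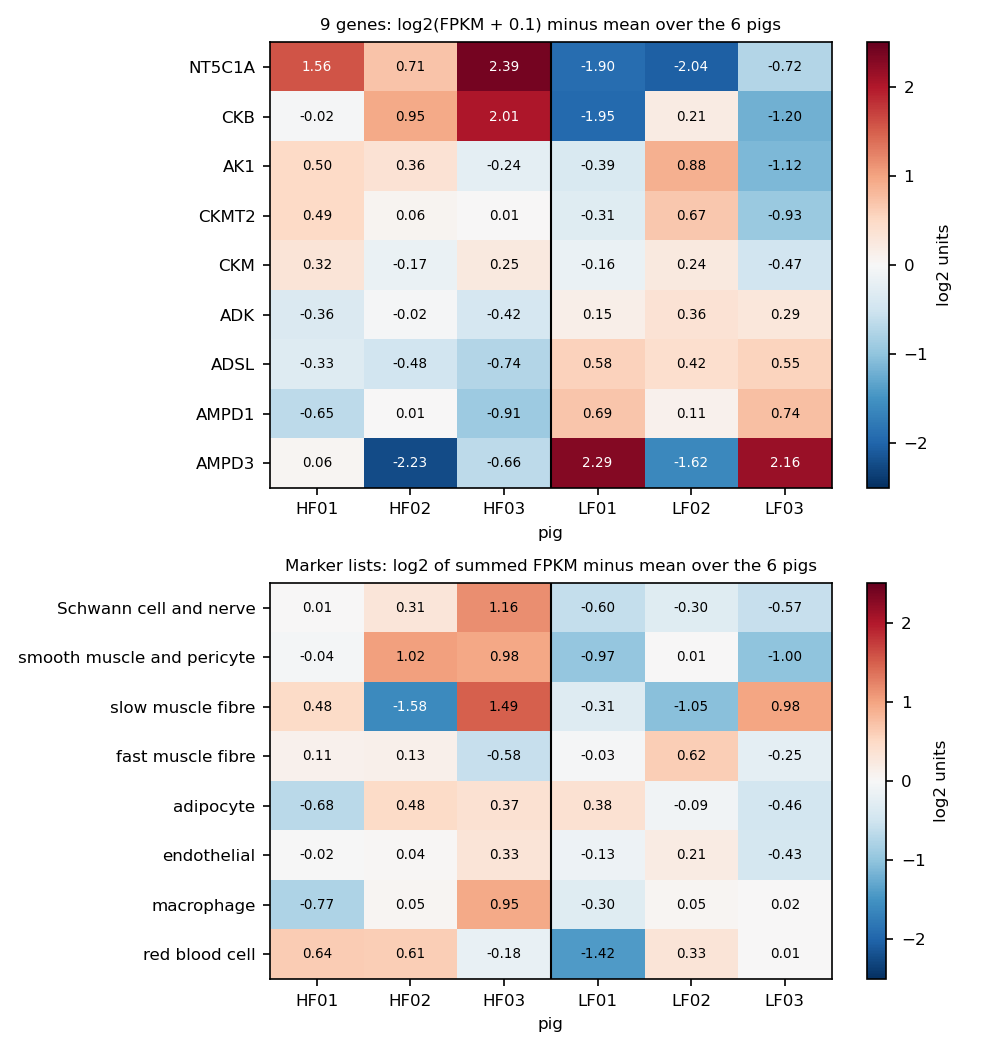
Each cell gives the log2 level in 1 pig minus the mean over the 6 pigs (red above, blue below), for the 9 genes in the upper panel and for the summed FPKM of 8 lists of cell type markers in the lower panel, with HF pigs left of the line and LF pigs right of it. NT5C1A was highest in HF03 at 2.39, AMPD3 highest in LF01 at 2.29, and the Schwann cell list highest in HF03 at 1.16. The slow fibre, macrophage and endothelial lists were also highest in HF03, at 1.49, 0.95 and 0.33.

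Lists of markers of other cell types were read beside the members, and 1 gene on them was called. The summed FPKM of 9 Schwann cell and nerve markers was 48.3 to 108 in the HF pigs and 31.7 to 39.0 in the LF pigs. Of the 6 tested, 5 had an unadjusted p under 0.05 higher in HF, where 11% of all genes were. Only 1 was called, where 0.0359% of all genes were called higher. That gene was NCMAP, a myelin protein, listed at 0 in every LF pig. MBP went the other way, with a log2 fold change of -0.24 and overlapping groups (limma, adjusted p = 0.633). The summed FPKM of 10 smooth muscle and pericyte markers was 207 to 433 in HF and 107 to 215 in LF. Of the 10, 8 had an unadjusted p under 0.05 higher in HF, where 11% of all genes were, and 0 were called by limma. HF03 had the most NT5C1A, the most CKB and the largest Schwann cell sum, and HF02 and HF03 had the most CKB and the largest smooth muscle sums. The endothelial, macrophage and slow fibre sums were also largest in HF03, at 105, 30.2 and 12145 FPKM. In LF the largest Schwann cell sum was in LF02, the pig with the least NT5C1A. None of the genes found on the Schwann cell and smooth muscle lists is at 0 in every pig. The part of any of these cell types in the levels of CKB and NT5C1A was not tested. Adipocyte markers, 9 in number, summed to 110.4 to 247 FPKM in HF and 128 to 230.2 FPKM in LF, with 6 positive and 2 negative log2 fold changes among the 8 tested. LIPE, a lipase of fat cells, was at 2.93, 8.32 and 7.86 FPKM across HF01 to HF03 and 63.4, 5.43 and 38.0 FPKM across LF01 to LF03 (limma, adjusted p = 0.182), high in LF01 and LF03 and low in LF02 as AMPD3 was. Its list did not share that pattern. ADIPOQ, PLIN1 and FABP4 were lowest in LF03 among the LF pigs, and ADIG, lowest of them in LF02, was highest of all in HF03. Red blood cell markers, 7 in number, summed to 66.6 to 118 FPKM in HF and 28.2 to 94.6 FPKM in LF, nearly all of it HBB, the beta chain of haemoglobin, with LF01, the pig with the most AMPD3, the lowest. EPB42, a membrane protein of red cells on the same list, ran the other way, at 0.419, 0.683 and 0.582 FPKM across HF01 to HF03 and 1.37, 0.852 and 1.29 FPKM across LF01 to LF03 (limma, adjusted p = 0.130), with LF01 the highest. Of the 7, 3 were tested, 1 with a positive and 2 with a negative log2 fold change. LIPE, EPB42 and the fat cell markers set beside LIPE were named after their values were seen. Slow fibre markers were lowest in HF02 and LF02, at 1439 and 2080 FPKM, which were also the pigs with the least AMPD3. Within each group NT5C1A followed the order of the slow fibre sum, lowest in HF02 and LF02 and highest in HF03 and LF03. That sum was 6021 and 12145 FPKM in HF01 and HF03, and 3471 and 8518 FPKM in LF01 and LF03. It overlapped between the groups, while NT5C1A was higher in every HF pig. The part of fibre type, fat cells and red cells in the level of AMPD3 was not tested, nor that of fibre type in the level of NT5C1A.

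**Figure D4:**
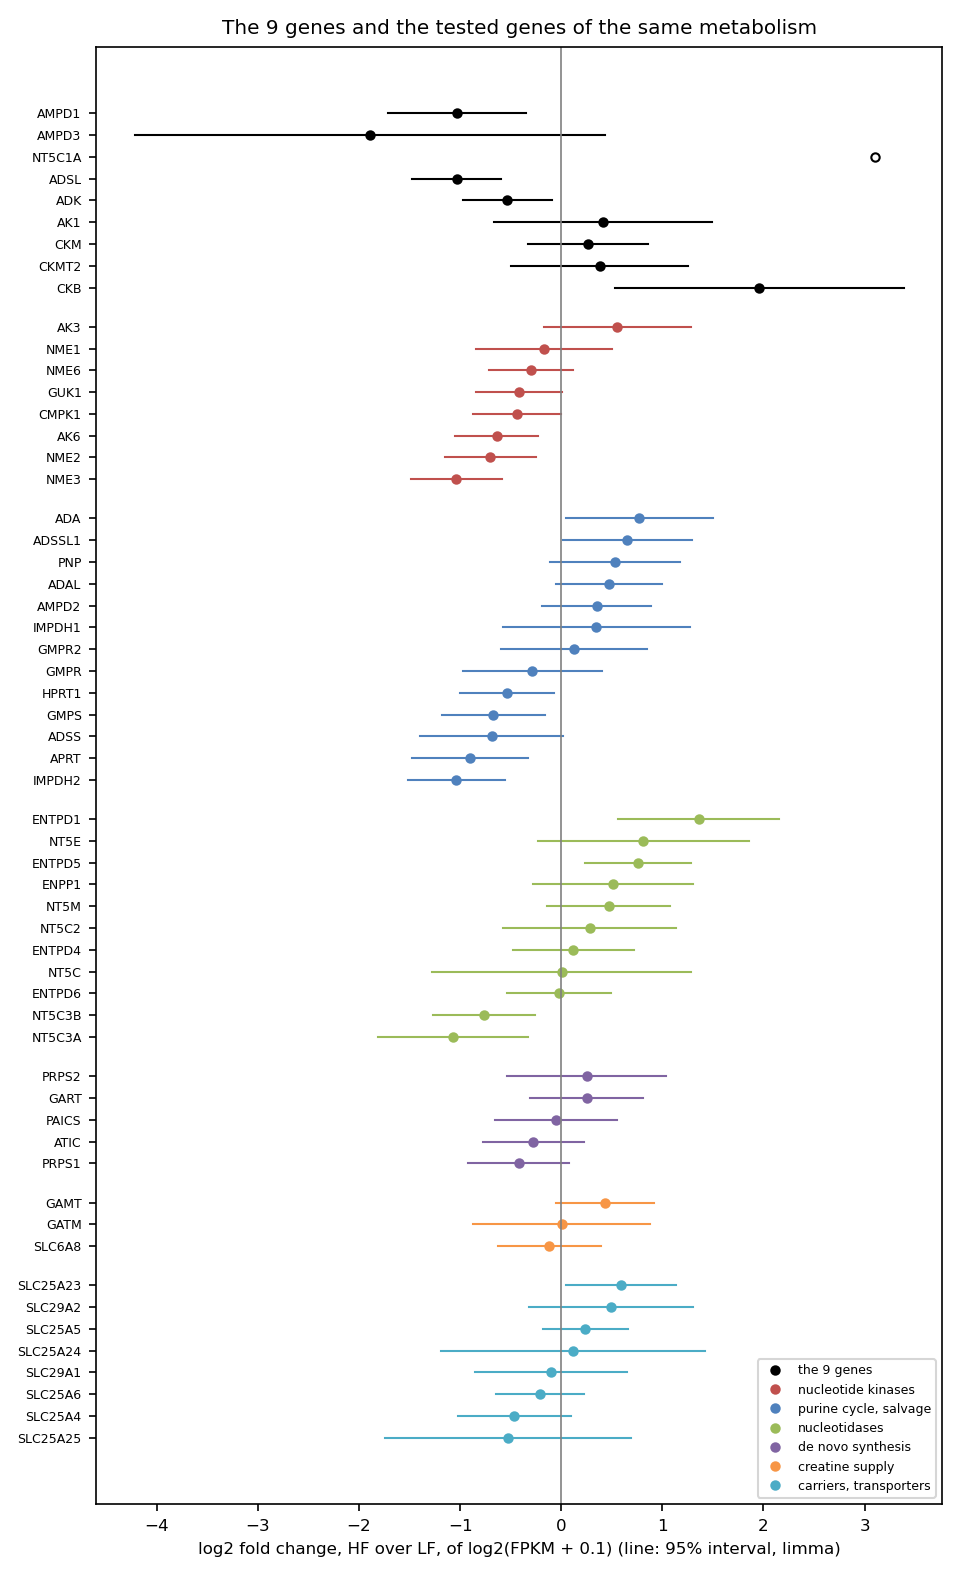
Log2 fold change, HF over LF, of log2(FPKM + 0.1) for the 9 genes (black) and the 48 tested genes of 6 lists of the same metabolism (colours), with 95% intervals from limma and no interval for NT5C1A (open circle). Right of 0 is higher in HF. Intervals of ADSL, NME3 and IMPDH2 lie wholly left of 0, and those of CKM, CKMT2 and AK1 span it.

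The wider metabolism was read from 6 lists chosen by function, with 48 genes tested. By limma 0 of the 48 were called, with 5 higher and 10 lower in HF at an unadjusted p under 0.05, where 11% of all genes were higher and 13.8% lower, and with 24 positive and 24 negative log2 fold changes. The groups did not overlap in 7 genes higher in HF, where 12.8% of all genes were, and in 14 lower in HF, where 17.1% of all genes were.

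Among the other kinases of nucleotides, the log2 fold change was below 0 for 7 of 8 tested (median -0.43), and 4 were lower in HF at an unadjusted p under 0.05, where 13.8% of all genes were. The median of all genes tested was -0.026, and the list was not tested as a set. NME3, a nucleoside diphosphate kinase, was at 6.03, 5.15 and 4.35 FPKM among the HF pigs and 9.58, 11.2 and 11.3 FPKM among the LF pigs (log2 fold change -1.04; limma, adjusted p = 0.0778). NME2, a more abundant kinase of the same family, was at 134 ± 13.6 FPKM in HF and 217 ± 22.1 FPKM in LF (limma, adjusted p = 0.101). AK6, a nuclear adenylate kinase, was at 5.69 ± 0.306 FPKM in HF and 8.94 ± 0.961 FPKM in LF (limma, adjusted p = 0.101). In all 3 the groups did not overlap, which their choice by smallest p favours. Of the 8 tested, the groups did not overlap in 6, each lower in HF, where 17.1% of all genes were. AK3, the adenylate kinase of the mitochondrial matrix, which uses GTP, was at 34.8 ± 16.5 FPKM in HF and 22.2 ± 3.2 FPKM in LF and overlapped (limma, adjusted p = 0.313). AK5, AK7 and AK8 had means below 0.5 FPKM and were not tested.

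In the purine nucleotide cycle and the salvage of purines, the log2 fold change was above 0 for 7 of 13 tested genes and below 0 for 6. IMPDH2, which commits IMP to guanine nucleotides, was at 14.5, 14.7 and 13.4 FPKM among the HF pigs and 35.0, 23.2 and 30.8 FPKM among the LF pigs (log2 fold change -1.04; limma, adjusted p = 0.0808). GMPS, the next enzyme of that branch, was at 5.56 ± 0.869 FPKM in HF and 8.98 ± 1.77 FPKM in LF (limma, adjusted p = 0.124). APRT, which salvages adenine, was at 3.63 ± 0.907 FPKM in HF and 6.82 ± 1.39 FPKM in LF (limma, adjusted p = 0.101). In these genes, as in AMPD1 and ADSL, each HF pig was below each LF pig, which their choice by smallest p favours. Of the 13, the groups did not overlap in 4 lower in HF, where 17.1% of all genes were, and in 3 higher, where 12.8% were.

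ADSSL1, the muscle form of adenylosuccinate synthetase and the step of the cycle between AMPD1 and ADSL, and its paralogue ADSS were named after their values were seen. The level of ADSSL1 was 198, 140.2 and 155 FPKM across HF01 to HF03, and 98.6, 147 and 76.0 FPKM across LF01 to LF03. The sign of its log2 fold change (0.66) was opposite to that of AMPD1 and ADSL, and LF02 lay among the HF values (limma, adjusted p = 0.194). ADSS, the form found in most tissues, was at 4.25 ± 0.573 FPKM in HF and 7.28 ± 2.75 FPKM in LF (limma, adjusted p = 0.209). ADSSL1 made up 96.6% to 98.0% of the sum of both forms in the HF pigs, and 91.5%, 97.3% and 89.9% in LF01 to LF03.

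Of the 11 tested genes of 5'-nucleotidases and ectonucleotidases, the groups did not overlap in 2 higher in HF (ENTPD1 and ENTPD5), where 12.8% of all genes were. They did not overlap in 2 lower in HF (NT5C3A and NT5C3B), where 17.1% of all genes were. NT5C1B, the closest paralogue of NT5C1A, is listed at 0 in every pig. NT5C2, which prefers IMP and GMP, was the most abundant in HF at 37.5 ± 8.79 FPKM, against 33.0 ± 14.8 FPKM in LF (limma, adjusted p = 0.673). NT5C3A, a nucleotidase of pyrimidine nucleotides, was at 21.5, 41.7 and 18.6 FPKM among the HF pigs and 65.6, 55.7 and 43.0 FPKM among the LF pigs, each HF pig below each LF pig (log2 fold change -1.07; limma, adjusted p = 0.110). NT5C3B was at 4.84 ± 0.355 FPKM in HF and 8.44 ± 2.16 FPKM in LF (limma, adjusted p = 0.104). NT5E, the 5'-nucleotidase of the cell surface that makes adenosine outside cells, was at 1.73 ± 0.867 FPKM in HF and 0.929 ± 0.494 FPKM in LF (limma, adjusted p = 0.303). NT5C and the mitochondrial NT5M had log2 fold changes of 0.0057 and 0.47 (limma, adjusted p = 0.996 and 0.309). ENTPD1, which strips phosphates from ATP and ADP outside cells, was at 2.71, 4.09 and 3.63 FPKM among the HF pigs and 1.31, 2.07 and 0.748 FPKM among the LF pigs (log2 fold change 1.36; limma, adjusted p = 0.0899). ENTPD5 was at 2.69 ± 0.413 FPKM in HF and 1.56 ± 0.319 FPKM in LF (limma, adjusted p = 0.110).

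Purine synthesis from small precursors was at a low level. Of its 5 tested genes, PRPS1, which makes the ribose phosphate precursor, was at 12.4 ± 0.876 FPKM in HF and 16.9 ± 4.24 FPKM in LF (limma, adjusted p = 0.270), while ATIC and GART had log2 fold changes of -0.28 and 0.25 (limma, adjusted p = 0.465 and 0.553).

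Of the 3 tested genes of creatine supply, 0 were called by limma, where 0.0718% of all genes were. At an unadjusted p under 0.05 there were 0, where 24.8% of all genes were in either direction. SLC6A8, the creatine transporter, was at 36.1 ± 7.09 FPKM in HF and 39.1 ± 6.18 FPKM in LF (limma, adjusted p = 0.776). GAMT, the last enzyme of creatine synthesis, was at 26.9 ± 3.80 FPKM in HF and 20.0 ± 3.39 FPKM in LF (limma, adjusted p = 0.243). Its groups did not overlap, as in 12.8% of all genes higher in HF, but HF02 at 23.7 FPKM and LF02 at 23.4 FPKM nearly met. GATM, the first enzyme, was at 0.968 ± 0.467 FPKM in HF and 0.891 ± 0.0958 FPKM in LF (limma, adjusted p = 0.996).

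Of the carriers, SLC25A4, the muscle form of the ADP and ATP exchanger of the inner mitochondrial membrane, was among the abundant messages. It was at 1642, 1122 and 1469 FPKM among the HF pigs and 1759, 2380.4 and 1695 FPKM among the LF pigs, each HF pig below each LF pig (log2 fold change -0.46; limma, adjusted p = 0.274). SLC25A23, a carrier that exchanges ATP-magnesium for phosphate, was at 3.58 ± 1.08 FPKM in HF and 2.28 ± 0.0752 FPKM in LF (limma, adjusted p = 0.172). SLC29A2, a nucleoside transporter, was at 5.99 ± 1.46 FPKM in HF and 4.48 ± 2.04 FPKM in LF (limma, adjusted p = 0.420).

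**Figure D5:**
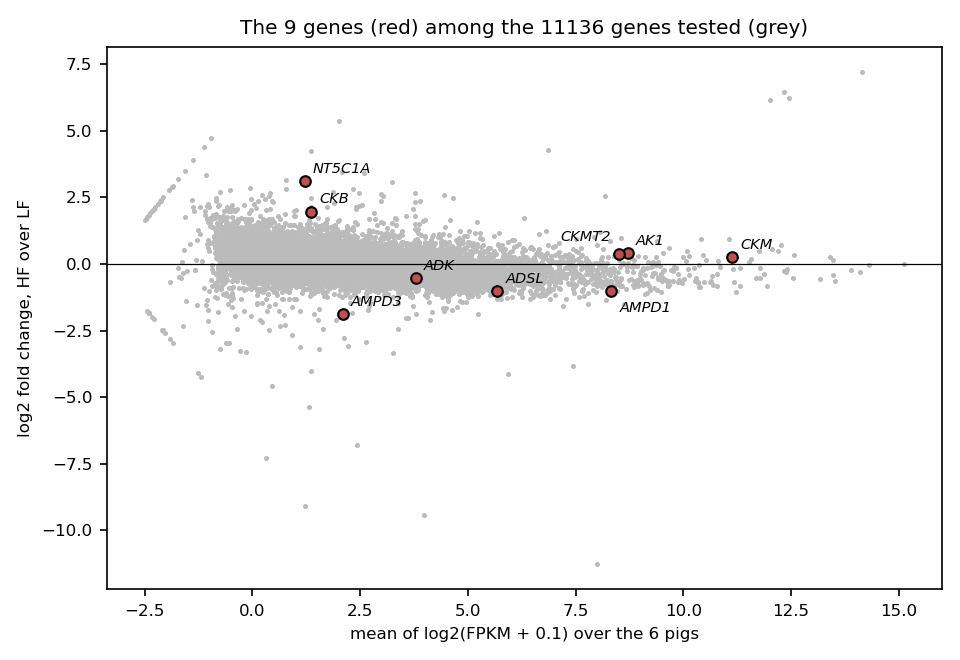
Log2 fold change, HF over LF (vertical axis), against the mean of log2(FPKM + 0.1) over the 6 pigs (horizontal axis) for the 11136 genes tested (grey), with the 9 genes in red. CKM lies at the abundant end with a log2 fold change of 0.27, NT5C1A at 3.11 near the upper edge of genes of its level, and AMPD3 at -1.89 near the lower edge. The place of NT5C1A is a description, since it was picked for its pattern in these pigs.

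By the measure of likeness above, the genes with a symbol closest to NT5C1A over the 6 pigs were NCBP2-AS2 at 0.67 log2 units, PCSK1N at 0.73, and PROX1 and FBXL22 at 0.75. NCBP2-AS2, named as an antisense partner of NCBP2, was at 31.6, 17.6 and 35.6 FPKM across HF01 to HF03 and 3.16, 4.76 and 17.2 FPKM across LF01 to LF03, and whether the counting used strand is not given in the sources used here. PROX1, a transcription factor, was at 0.655, 0.591 and 1.44 FPKM among the HF pigs and 0.158, 0.107 and 0.341 FPKM among the LF pigs. Like NT5C1A it was highest in the pig with number 3 and lowest in the pig with number 2 of each group. In each of these 4 genes the HF pigs all exceeded the LF pigs, which likeness to NT5C1A favours by construction. PCSK1N, PROX1 and FBXL22 had LF means of 0.194, 0.202 and 0.238 FPKM, and passed the filter of 0.5 FPKM only through their HF levels.

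LF02 stood apart from LF01 and LF03 in AMPD1, AMPD3, AK1, CKMT2 and CKB, and the counts were therefore repeated without it, a choice made after the values were seen. Of the 8 genes, 3 were then higher (AK1, CKMT2 and CKB) and 3 lower (AMPD1, AMPD3 and ADSL) at an unadjusted p under 0.05, where 11.5% of all genes were higher and 16.6% lower, or 28.1% in either direction. The groups did not overlap in 3 higher and 4 lower genes, where 19.5% of all genes were higher and 27.7% lower. The call of AMPD3 given above was the only one among the 8. LF02 was left out for its values in these same genes, so these counts and that call are descriptions and no support. The shares of all genes are not a like comparison, since LF02 was not picked on all genes.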

How the data were processed

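Libraries were made by the authors from longissimus dorsi RNA with an Illumina TruSeq kit and read as pairs. Per the study's methods, reads were cleaned with fastp, aligned with HISAT2 to Sscrofa11.1 and summarised by cufflinks. The FPKM values were deposited by the authors, normalised for transcript length and library size, and were used as deposited. The same table holds the authors' fold changes and p-values from HTSeq counts and DESeq2, which were not used, and a second sheet repeats a subset of the rows. FPKM carry no counts, so no counting intervals are given and the number of pigs sets the precision. Locus starts were raised by 1, since 699 starts matched RefSeq that way and 241 as listed. Blank symbols were filled from a gene name table by ID, leaving 7191 of 25878 genes without one.

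HF was compared with LF by limma 3.58.1 (R 4.3.3; eBayes with a mean trend, two-sided, no covariate) on log2(FPKM + 0.1), at a mean of at least 0.5 FPKM. The study's count model could not be used on FPKM. Ratios within a pig were compared by exact permutation. The genes named are the 9 members, paralogues and up to 3 genes of smallest p per list, and the 5 most like NT5C1A, of which 1 is not reported here. The members and lists were chosen with earlier results of these data known. The fit was tested on simulated data. Alternatives were pseudocounts, filters, scalings, eBayes settings, a replicate block, other thresholds and each pig left out.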

Additional observations from a re-analysis of the deposited data

How the results depend on the processing

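Each of the 9 genes kept its direction under every alternative except AK1, at -0.040 without LF03, and none of the 8 tested was called except AMPD3, at -3.17 without LF02. Leaving out 1 pig at a time gave log2 fold changes from -0.040 to 0.96 for AK1, from -3.17 to -1.22 for AMPD3 and from 2.69 to 3.53 for NT5C1A. Since NT5C1A was picked for its pattern in these pigs, its kept direction and its range are descriptions and no support. NT5C1A was at 2.18 with a pseudocount of 1 and was not tested at a mean of at least 5 FPKM, where CKB also dropped out. Of the log2 ratios, CKMT2 to CKM turned to -0.085 without LF03 (range without 1 pig -0.085 to 0.36) and AMPD3 to AMPD1 to 0.045 without HF02 (range -2.02 to 0.045). With the gene nested in CKM added, chosen after seeing the data, CKMT2 to CKM was 0.27 and CKB to CKM 1.96. Upper quartile scaling moved the median of all genes by 0.15 and median-of-ratios scaling by -0.035, and no member changed direction under either.

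The numbers of genes called by limma, 4 higher and 4 lower, moved with most settings, and the cause was not tested. They were 2 higher with a pseudocount of 1, 0 and 1 (higher and lower) without a filter, 2 higher at a mean of at least 5 FPKM, 12 and 8 with median-of-ratios scaling, 72 and 10 with upper quartile scaling, 1 and 1 without trend, 9 higher with the robust fit, 315 and 389 at an adjusted p under 0.10, and 0 and 1 at the stricter limits of the study (adjusted p below 0.01 with a log2 change above 1 in size). Without 1 pig they ran from 0 to 102 higher, with 700 to 1509 at an unadjusted p under 0.05, and from 1 to 124 lower. The 102 higher and 124 lower calls came without LF02, and 0 higher without HF02, LF01 or LF03. At an unadjusted p under 0.05, 1819 genes were higher without a filter and 1223 in the fit to which those stricter limits were applied. The study applied those limits to a count model, which was not run here, and reported far more genes. The number at those limits here is therefore not comparable with the study's.

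With the replicate number as a block, 6 genes were higher and 8 lower, and no member was called (ADSL at -1.03, limma adjusted p = 0.128). Deviations from the group means were at most weakly correlated between pigs with the same number (r = -0.043, 0.088 and 0.016 across 11136 genes, which are not independent). Not every pig correlated best with its own number. The study's background speaks of pairs of divergent pigs, but the labels name none, so the numbers are not treated as pairs. With 3 pigs per group, these correlations cannot show whether pigs were paired.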
